A study of Drosophila melanogaster with 18 samples.

Results

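The comparison described here asks how much of the response of Drosophila S2 cells to the reducing agent DTT depends on XBP-1. It is a difference of differences: the effect of DTT in cells that had received double-stranded RNA matching XBP-1 mRNA, minus the effect of DTT in control cells. It uses 12 of the 18 spotted arrays of the study, 3 in each of 4 groups: control without DTT, control with DTT, XBP-1 RNAi without DTT and XBP-1 RNAi with DTT. DTT was given at 2 mM for 7.4 hours, and each array carries a replicate letter, A, B or C.

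S2 cells are an embryonic line with properties of hemocytes, the blood cells of the fly. Control cells went through the same handling without any double-stranded RNA, so an effect of double-stranded RNA as such cannot be told apart from the loss of XBP-1. Nothing in the labels ties the letters to separate cultures, so p-values cover only array-to-array spread that can be technical. Each array set Cy5-labelled sample RNA against 1 common Cy3-labelled reference pooled from untreated S2 cells, DTT-treated S2 cells and embryos. All values are log ratios, read as log2 and as sample over reference, centred on the median of each array. The base and the direction are not stated with the table, so every log2 size rests on that reading. In RNA of whole cultures, less RNA per cell and fewer cells that hold it cannot be told apart. A level is such a centred ratio to the reference and cannot be compared between probes.

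DTT breaks disulphide bonds and causes unfolded proteins to accumulate in the endoplasmic reticulum (ER). In the unfolded protein response, the ER membrane enzyme IRE1 senses this and cuts the mRNA of XBP-1, which is then translated into an active transcription factor. In animals XBP-1 is known for driving genes of ER chaperones, protein import into the ER, vesicle transport, glycosylation and the disposal of misfolded proteins. A second sensor, PERK, phosphorylates eIF2alpha, slows translation and raises the transcription factor ATF4, called crc in flies. IRE1 can also degrade mRNAs at the ER membrane independently of XBP-1.

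The 12 arrays held 4851 to 6688 values each, and the emptiest was XBP-1 RNAi without DTT, letter B, with 33.2% of its cells empty. Array medians before centring ran from -0.58 to 0.24. Within groups, pairs of arrays had correlations of 0.639 to 0.876 over the probes. Of 10 hemocyte markers, 7 were on the arrays; Pxn, srp, Sr-CI and crq gave a value on all 12 arrays, and eater and Hml on 1 array each. None of the tested markers of hemocytes (5), muscle (4), neurons (4) or gut (2) passed the test for the difference. Their differences ran from -0.71 for the gut marker Mal-A1 to 0.94 for the muscle marker Act57B, and no fat body marker was on the arrays.

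The RNAi target was examined first. The probe Xbp1 9415a read -0.37, -0.09 and -0.95 in control without DTT (letters A, B and C) and -1.12, -0.70 and -1.37 under XBP-1 RNAi without DTT. With DTT it read -0.46, -0.05 and -0.50 in control and -0.74, -0.55 and -0.60 under XBP-1 RNAi. The second probe, Xbp1 9415b, read -0.09, 0.05 and -0.45 in control and -0.76, -0.61 and -0.99 under RNAi without DTT, then -0.13, 0.04 and 0.17 in control and -0.78, -0.40 and -0.40 under RNAi with DTT. Both probes were thus lower under RNAi than in control of the same letter in every pair. Neither difference passed the test adjusted over all probes. Without DTT, RNAi minus control was -0.59 for 9415a and -0.62 for 9415b, each with limma's adjusted p of 0.376. With DTT the differences were -0.29 (adjusted p = 0.367) and -0.55 (adjusted p = 0.072). Where the probes lie relative to the stretch used as double-stranded RNA is not given in the sources used here. The DTT response of Xbp1 itself did not pass the test for a difference between the arms, at 0.30 ± 0.24 (SE from limma here and below; adjusted p = 0.494) and 0.07 ± 0.26 (adjusted p = 0.902).

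Without DTT no probe passed the test between XBP-1 RNAi and control. Of 5668 probes tested, 0 passed in limma (0%), 592 had an unadjusted p under 0.05, and 0 passed in each of the 5 other settings run for that contrast. With DTT, 338 probes (5.8% of 5828) were lower under XBP-1 RNAi than in control and 135 (2.32%) were higher, 8.12% in all.

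In the difference of the DTT responses, 388 of 5483 probes passed (7.08%). The response was lower under XBP-1 RNAi for 255 probes (4.65%) and higher for 133 (2.43%). The median over all probes was 0.02. Of the calls 65.7% were lower, and this split moved with the scaling: 87.2% with values as deposited, 79.2% with quantile normalization and 53.6% with arrays centred on the median of the probes measured on all 18 arrays. Values as deposited moved the median over all probes to -0.30, so their lower and higher counts, 170 and 25, lie around that shift. Without the replicate letter as a block, 69 probes were lower and 13 higher, all of them among the 255 and 133. Leaving out control without DTT, letter A, gave 167 lower and 47 higher probes, and leaving out XBP-1 RNAi with DTT, letter C, gave 166 and 56. The higher count also fell to 63 and 60 without letter A or B of control with DTT, and to 67 and 79 without the XBP-1 RNAi arrays of letter A or B that had no DTT.

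**Figure D1:**
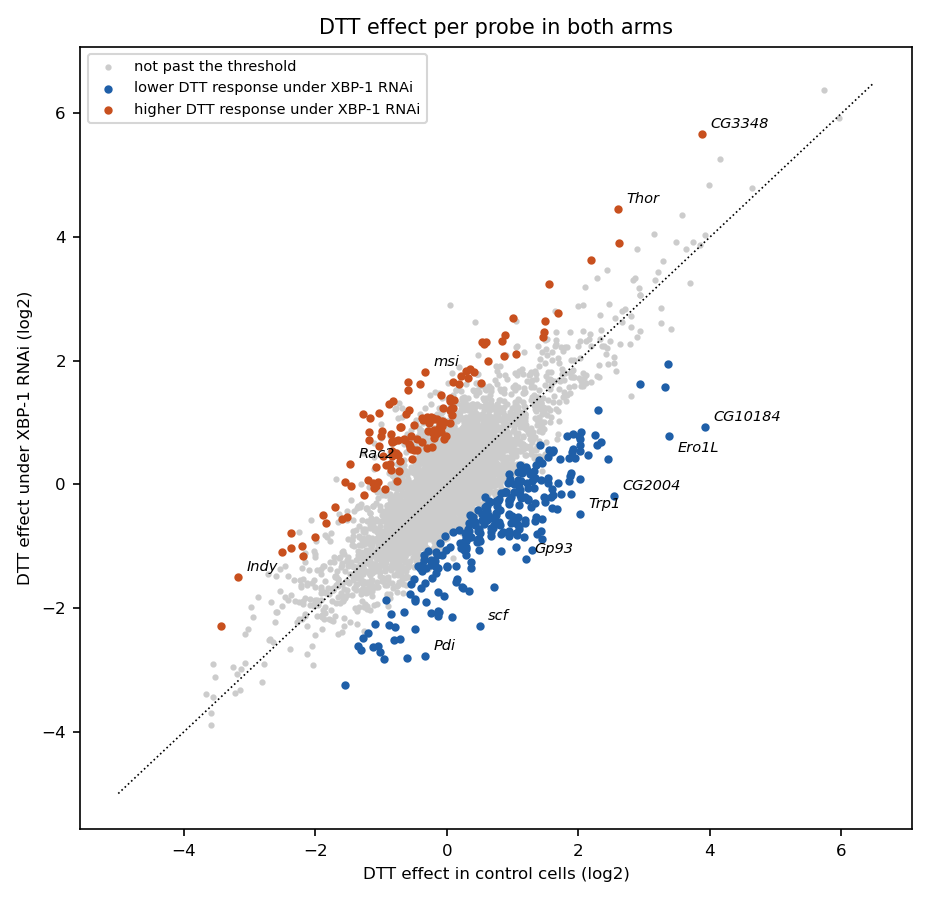
Each point is 1 of the 5483 probes tested, with its DTT effect in control cells on the horizontal axis and under XBP-1 RNAi on the vertical axis, both in log2. The dotted line marks equal effects; the 255 probes with a lower response (blue) lie below it and the 133 with a higher response (orange) above it.

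Among the 255 lower probes the median difference was -1.28, and the sizes ran from 0.777 to 3.00. The median DTT effect was 0.74 in control cells and -0.58 under XBP-1 RNAi. By each arm's own test, 154 of the 255 rose with DTT in control: 95 of these did not pass under XBP-1 RNAi, 39 fell there and 20 still rose. Another 83 did not pass in control and fell under XBP-1 RNAi, and 18 fell in both arms. Over all probes tested, DTT changed 34.3% in control (17.2% up, 17.1% down) and 45.2% under XBP-1 RNAi (23.7% up, 21.6% down). The counts describe the called probes and are not a further test. The 255 probes named 250 genes, and 61 of these belonged to at least 1 of 6 secretory pathway lists, which had 116 tested genes between them. Of the 130 genes named by the 133 higher probes, 1 belonged to those lists.

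Of all lists, the ER chaperones and folding enzymes had the highest share of calls. Of 14 tested genes, 13 had a lower DTT response under XBP-1 RNAi and 0 a higher one, with a list median of -1.86 against 0.02 over all probes. Among all probes tested 4.65% were lower and 2.43% higher, and the counts of this and the following lists stand beside those shares. Without the letter block 9 of the 14 passed. In control cells 9 of these genes rose with DTT and 2 fell, while under XBP-1 RNAi 3 rose and 10 fell.

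Ero1L, the oxidase that recharges protein disulphide isomerase, read -1.83, -1.86 and -1.98 in control without DTT and 1.43, 1.51 and 1.53 with DTT. Under XBP-1 RNAi it read -1.13, -1.93 and -2.15 without DTT and -1.35, -1.31 and -0.18 with DTT. The control arrays separated fully by DTT, while the XBP-1 RNAi arrays overlapped. DTT raised Ero1L by 3.38 ± 0.31 in control and by 0.79 ± 0.31 under RNAi, a difference of -2.59 ± 0.43 (adjusted p = 0.0011).

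Pdi, the major protein disulphide isomerase, showed another pattern. Its levels were 0.89, 0.74 and 1.33 in control without DTT, 1.00, 0.13 and 0.85 with DTT, 1.33, 1.04 and 0.86 under XBP-1 RNAi without DTT, and -2.09, -1.83 and -1.17 under XBP-1 RNAi with DTT. The 3 arrays with both RNAi and DTT lay below the other 9, which overlapped between groups. The DTT effect was -0.33 in control, which did not pass, and -2.77 under RNAi, a difference of -2.45 ± 0.33 (adjusted p = 0.000235). ERp60, a disulphide isomerase that works with the lectin chaperones, also had its lowest values on those 3 arrays. It read 1.12, 1.06 and 0.93, then 0.42, 0.48 and 0.39 with DTT in control, and 1.61, 0.80 and 0.97, then -1.66, -1.82 and -1.54 with DTT under RNAi. Its difference was -2.19 ± 0.31 (adjusted p = 0.00028). For prtp, a thioredoxin-domain protein of the ER, the DTT effect was -0.96 in control and -2.82 under RNAi, a difference of -1.86 (adjusted p = 0.00311).

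Gp93, the fly GRP94 and an ER member of the Hsp90 family, rose with DTT in control from -0.27, 0.48 and 0.56 to 1.58, 1.27 and 1.52. Under XBP-1 RNAi it fell from 0.04, -0.30 and 0.08 to -1.49, -1.82 and -0.50. The arrays of the arms separated in opposite directions, and the difference was -2.41 ± 0.37 (adjusted p = 0.00062). Hsc70-3, the fly BiP and the main Hsp70 of the ER, was the 1 tested chaperone that did not pass. It read -1.66, -1.36 and -1.51, then 1.21, 1.36 and 1.30 with DTT in control, and -2.64, -2.76 and -1.78, then -1.71, -1.78 and 0.59 with DTT under XBP-1 RNAi. Its difference was -1.37 ± 0.55 (adjusted p = 0.153), and without the last of these arrays, XBP-1 RNAi with DTT, letter C, it was -2.02 with an adjusted p of 0.00406. It also passed with values as deposited, at -1.68 (adjusted p = 0.00984), and in limma on the 3 per-letter differences, where all probes shared a common variance.

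The helpers of BiP were called lower. The nucleotide exchange factor Sil1 rose by 3.31 with DTT in control and by 1.58 under XBP-1 RNAi (difference -1.73 ± 0.35, adjusted p = 0.00547). Grp170, a large Hsp70-like exchange factor, changed by 0.86 in control and -0.77 under RNAi. The J-domain cochaperone P58IPK rose by 1.73 in control, while its -0.15 under RNAi did not pass, and the difference was -1.89. Both probes of shv, an ER J-domain protein, were called, at -1.81 and -2.06. The lectin chaperones Calr (calreticulin) and Cnx99A (calnexin) had differences of -1.89 and -1.34. The peptidyl-prolyl isomerase Fkbp14 (-1.83) and Manf (-1.80), a secreted neurotrophic protein that resides in the ER, were outside the list and were picked after their values were seen. Both calls were lost without the letter block (adjusted p = 0.14 and 0.164) and with each probe's own variance (0.0543 and 0.0532).

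**Figure D2:**
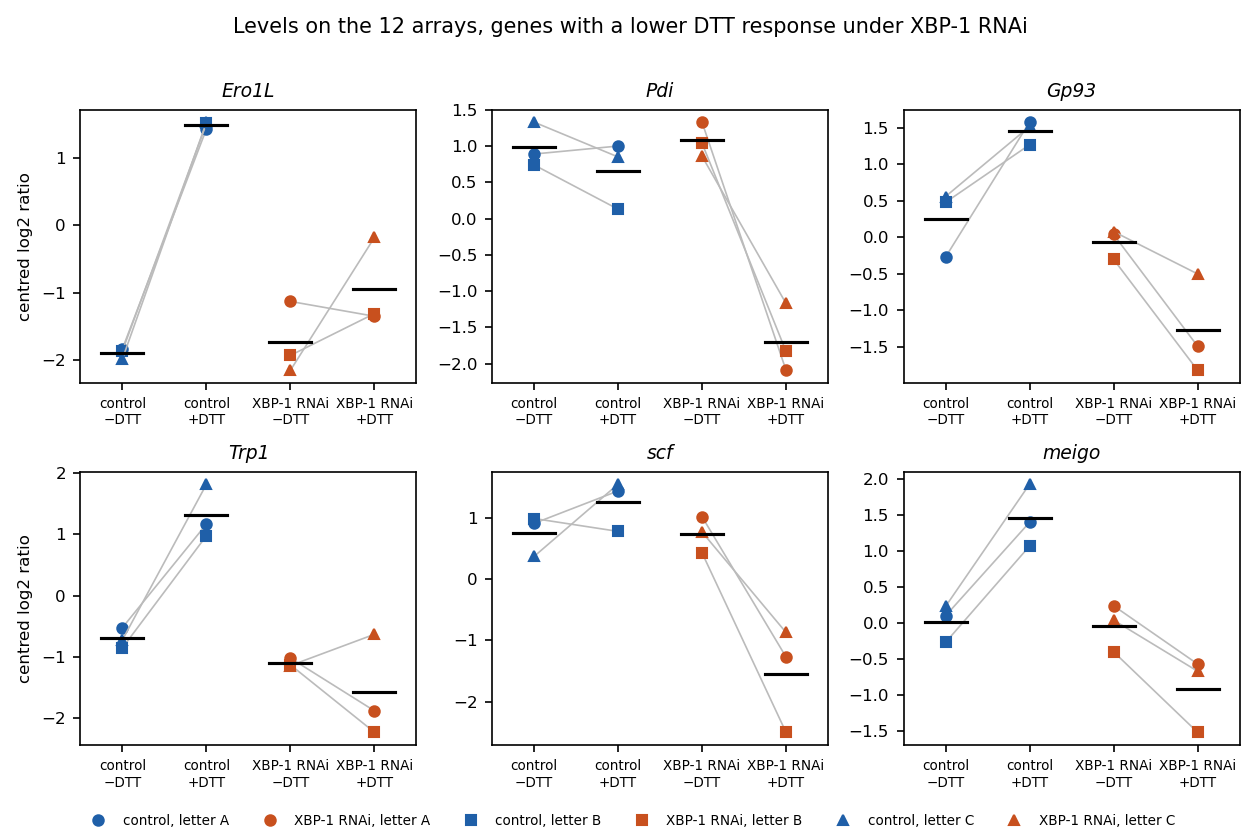
Centred log2 ratios of Ero1L, Pdi, Gp93, Trp1, scf and meigo on each of the 12 arrays; symbols give the replicate letter, lines join arrays of the same letter and black bars are group means. Gp93, Trp1 and meigo rise with DTT in control but their group means do not rise under XBP-1 RNAi, Ero1L rises by 3.38 in control and by 0.79 under XBP-1 RNAi, and Pdi and scf drop with DTT on the XBP-1 RNAi arrays.

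Genes of protein import into the ER followed. Of 19 tested, 13 had a lower DTT response and 0 a higher one, with a median of -1.35. Without the letter block 2 passed as lower, and with each probe's own variance 7 did. In contrast to the chaperones, 1 of the 19 rose with DTT in control and 3 fell, while under XBP-1 RNAi 0 rose and 15 fell. Sec63, which couples BiP to the translocation channel, read -0.11, 0.56 and 0.47, then 0.50, 0.50 and 0.66 with DTT in control, and 0.24, 0.40 and 0.34, then -1.21, -1.62 and -1.24 with DTT under RNAi. Only the arrays with both RNAi and DTT stood below the rest. The difference was -1.93 ± 0.29 (adjusted p = 0.000633).

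Trp1, the fly homologue of the Sec62 channel subunit, is not in that list by symbol and was among the genes with the lowest differences. It read -0.52, -0.85 and -0.72, then 1.17, 0.98 and 1.82 with DTT in control. Under RNAi it read -1.02, -1.13 and -1.14, then -1.88, -2.23 and -0.63 with DTT. DTT raised it by 2.02 in control and not under RNAi (-0.48, not past the threshold), a difference of -2.50 ± 0.38 (adjusted p = 0.000627).

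The lower calls of the main fit covered each step of import. For targeting, the signal recognition particle subunit Srp68 had a difference of -1.60 and the receptor subunit SrpRalpha -1.59. For the channel, Sec61gamma (-1.40) passed and the pore subunit Sec61alpha did not, at -0.72 ± 0.26 (adjusted p = 0.105; -0.90 and 0.0411 without control without DTT, letter B). Accessory factors were TRAM (-1.76), and 2 subunits of the translocon-associated complex, CG5885 (-1.93) and l(1)G0320 (-1.79). The call of l(1)G0320 was lost without control without DTT, letter C (-1.43, adjusted p = 0.0509), or without XBP-1 RNAi without DTT, letter A (-1.64, adjusted p = 0.0509). For processing, the signal peptidase subunit Spase25 had a difference of -1.72. Without the letter block Sec63 and Srp68 still passed (adjusted p = 0.0135 each). SrpRalpha, Sec61gamma, TRAM, CG5885, l(1)G0320 and Spase25 did not, with adjusted p-values from 0.0528 to 0.135. The signal peptide peptidase Spp, outside the list and picked after its values were seen, had -1.99 ± 0.33 (adjusted p = 0.00105).

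In transport between ER and Golgi, 17 of 32 tested genes had a lower response and 0 a higher one, with a median of -1.02. The count was 4 without the letter block, 11 with each probe's own variance and 11 without control without DTT, letter A. Several subunits of the COPI coat, which carries vesicles back to the ER, were among them. deltaCOP read 0.46, 0.31 and 0.55, then 1.69, 1.16 and 1.75 with DTT in control, and 0.96, 0.45 and 0.59, then 0.24, -0.34 and 0.08 with DTT under RNAi. It rose on every control array and dropped on every RNAi array, with a difference of -1.77 ± 0.23 (adjusted p = 0.00017). betaCOP (-2.19), epsilonCOP (-1.61) and gammaCOP (-1.60) were also called. Of the COPII coat, which carries cargo forward, Sec23 had a difference of -1.91 and Sec24CD -1.24.

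Grasp65, a Golgi stacking protein, changed with DTT by 1.37 in control and -0.80 under RNAi, so that the responses differed by -2.16 ± 0.28 (adjusted p = 0.00017). The cargo receptor CHOp24 of the p24 family fell in both arms, by 1.02 in control and by 2.71 under RNAi, so that its difference was -1.69.

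In ER-associated degradation, which returns misfolded proteins to the cytosol for the proteasome, 6 of 13 tested genes were lower and 0 higher, with a median of -0.94. Without the letter block 1 of the 6 passed. Der-2, a derlin of the retrotranslocation complex, read 0.08, 0.13 and 0.24, then 1.37, 0.93 and 1.72 with DTT in control, and 0.53, 0.00 and 0.28, then -0.38, -0.71 and 0.01 with DTT under RNAi. The control groups did not overlap and the RNAi groups did. Its difference was -1.82 ± 0.25 (adjusted p = 0.000235). Hrd3, the partner of the ubiquitin ligase Hrd1, had a difference of -1.88 and Der-1 -1.22. Herp, a membrane component of the same complex, still rose under XBP-1 RNAi, by 0.73 against 2.02 in control (difference -1.30, adjusted p = 0.00947).

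For N-glycosylation 7 of 22 tested genes were lower and 0 higher, with a median of -0.68. Without the letter block 2 passed, and with each probe's own variance 4 did. The 7 lower genes included 3 subunits of the oligosaccharyltransferase and the transferases Alg1 and wol, which build the lipid-linked glycan. The others were both subunits of glucosidase II, which trims it. OstDelta read 0.70, 0.87 and 0.81, then 0.21, -0.08 and -0.12 with DTT in control, and 0.99, 1.08 and 0.84, then -1.12, -1.55 and -1.36 with DTT under RNAi. It fell with DTT in both arms, by 0.79 in control and by 2.31 under RNAi, a difference of -1.52 ± 0.28 (adjusted p = 0.00191). The difference was -1.60 for Ost48, -1.50 for the glucosidase subunit GCS2beta and -1.28 for GCS2alpha. The calls of Dad1 and wol were lost when any 1 of 3 and 4 arrays, respectively, was left out, with adjusted p-values up to 0.0561 and 0.0627. For Dad1 these were control without DTT A (-1.01), control with DTT C (-0.99) and XBP-1 RNAi without DTT B (-1.02). For wol they were control without DTT A (-1.03), control with DTT C (-1.18), XBP-1 RNAi without DTT B (-1.20) and XBP-1 RNAi with DTT C (-1.17).

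Among enzymes and transporters that supply sugars, 5 of 16 tested genes were lower and 1 higher, with a median of -0.64; without the letter block 3 remained lower. Gfat2, the first enzyme of the hexosamine pathway, had a DTT effect of 0.71 in control, which did not pass, and fell by 1.67 under RNAi, a difference of -2.38 ± 0.39 (adjusted p = 0.00101). meigo, an ER protein of the nucleotide sugar transporter family, rose in control from 0.10, -0.27 and 0.23 to 1.40, 1.07 and 1.93 and fell under RNAi from 0.24, -0.40 and 0.04 to -0.57, -1.52 and -0.67. Its difference was -2.33 ± 0.32 (adjusted p = 0.000235). The phosphoglucomutase Pgm2a had -1.66 and the Golgi GDP-fucose transporter nac -1.51. Gmd, which makes GDP-fucose from GDP-mannose, had -1.20, and its call was lost without control without DTT, letter A (-0.99, adjusted p = 0.0501). The gene with a higher response was UGP, which makes UDP-glucose (1.16 ± 0.32, adjusted p = 0.0357). That call was lost without any 1 of 7 arrays: control without DTT B (1.02), control with DTT A (0.89) and B (1.22), XBP-1 RNAi without DTT A (1.11) and B (1.11), and XBP-1 RNAi with DTT A (1.01) and B (1.14).

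Outside the list and picked after their values were seen, Pmm2 and Gmppb make GDP-mannose, the sugar donor for N-glycans. Pmm2 read -0.32, -0.18 and 0.01, then 1.84, 1.40 and 1.91 with DTT in control, and 0.10, -0.27 and -0.03, then 0.06, -0.45 and -0.28 with DTT under RNAi. The DTT effect was 1.88 in control and -0.16 under RNAi, where it did not pass, for a difference of -2.04 ± 0.31 (adjusted p = 0.00062). For Gmppb the DTT effects were 1.85 and 0.06 and the difference -1.79 ± 0.28 (adjusted p = 0.000633).

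Among all probes measured on the 12 arrays, scf had the lowest difference. It encodes a calcium-binding protein with EF hands. It read 0.91, 0.99 and 0.37 in control without DTT and 1.44, 0.78 and 1.55 with DTT, then 1.02, 0.43 and 0.77 under XBP-1 RNAi without DTT and -1.27, -2.50 and -0.87 with DTT. The 3 arrays with RNAi and DTT stood apart from the other 9. The difference of -2.79 ± 0.40 (adjusted p = 0.000376) equals 6.9-fold on a log2 reading.

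CG2004 read -0.77, -0.81 and -0.42, then 2.02, 1.63 and 1.98 with DTT in control, and -0.23, -0.66 and -0.67, then -0.53, -1.11 and -0.48 with DTT under RNAi. Its rise of 2.54 in control had no called counterpart under RNAi (-0.19), a difference of -2.73 ± 0.27 with the smallest adjusted p among the 5483 probes (1.69e-05). CG10184, with values on 9 of the 12 arrays, had the lowest difference of any probe, -3.001 ± 0.49 (adjusted p = 0.00289), with DTT effects of 3.93 in control and 0.93 under RNAi. It falls outside the naming rule because of its empty cells, and its call was lost with each probe's own variance (adjusted p = 0.144). The others among the 15 lowest differences were sel (-2.36), a saposin-like protein of the ER, the organic cation transporter Orct2 (-2.21), the acetyl-CoA acetyltransferase Acat2 (-2.07) and boca (-2.06), a chaperone for receptors of the LDL receptor family. Of the 15, the call of Gfat2 alone was lost without the letter block (adjusted p = 0.0511), and none was lost when any 1 of the 12 arrays was left out.

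The higher responses were fewer and depended more on the processing. Among the 133 probes the median difference was 1.29, with a median DTT effect of -0.45 in control cells and 0.88 under XBP-1 RNAi. Their median of XBP-1 RNAi minus control was -0.50 without DTT and 0.75 with DTT. The probes were picked by the difference between these contrasts, which by itself pushes the first median down and the second up. The medians are therefore no result about levels without DTT, where no single probe passed. For the 255 lower probes these medians were 0.14 and -1.18. By each arm's own test, 65 did not pass in control and rose under XBP-1 RNAi, 28 fell in control and did not pass under RNAi, 14 rose in both arms, 14 fell in control and rose under RNAi, 11 fell in both and 1 passed in neither arm.

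Thor is the fly 4E-BP, a translation inhibitor whose gene is a target of ATF4. It read -0.82, -1.59 and -1.81, then 1.34, 0.96 and 1.30 with DTT in control, and -1.81, -1.21 and -1.47, then 3.40, 2.81 and 2.66 with DTT under RNAi. DTT separated the groups in both arms, and the arrays with RNAi and DTT were above all others. The rises were 2.61 ± 0.26 and 4.45 ± 0.26, a difference of 1.85 ± 0.37 (adjusted p = 0.00474). With quantile normalization it was 1.03 (adjusted p = 0.0695).

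Thor belongs to the list of sensors and regulators of the unfolded protein response. Of its 11 tested genes 1 was lower and 2 higher, with a median of 0.09. Among all probes tested 4.65% were lower and 2.43% higher, and counts this small are no result about the list. The lower gene was eIF2alpha, the translation factor subunit phosphorylated by PERK, at -1.03 ± 0.23 (adjusted p = 0.0107; 0.104 without the letter block). The second higher gene was CrebA, a bZIP factor of secretory genes, at 2.05 ± 0.58 (adjusted p = 0.0492). It had 10 of 12 values, and its call was lost without control without DTT A (1.13) or XBP-1 RNAi without DTT A (1.89) or B (2.10). The call was also lost without control with DTT B (adjusted p = 0.0575) or XBP-1 RNAi with DTT A (0.0517). In those fits the difference itself stayed at 2.05. The difference of crc, the fly ATF4, was 0.85 ± 0.37 (adjusted p = 0.185), and 1.22 with an adjusted p of 0.0338 without XBP-1 RNAi without DTT, letter C. Ire1 itself had a difference of 0.17 ± 0.59 (adjusted p = 0.898).

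**Figure D3:**
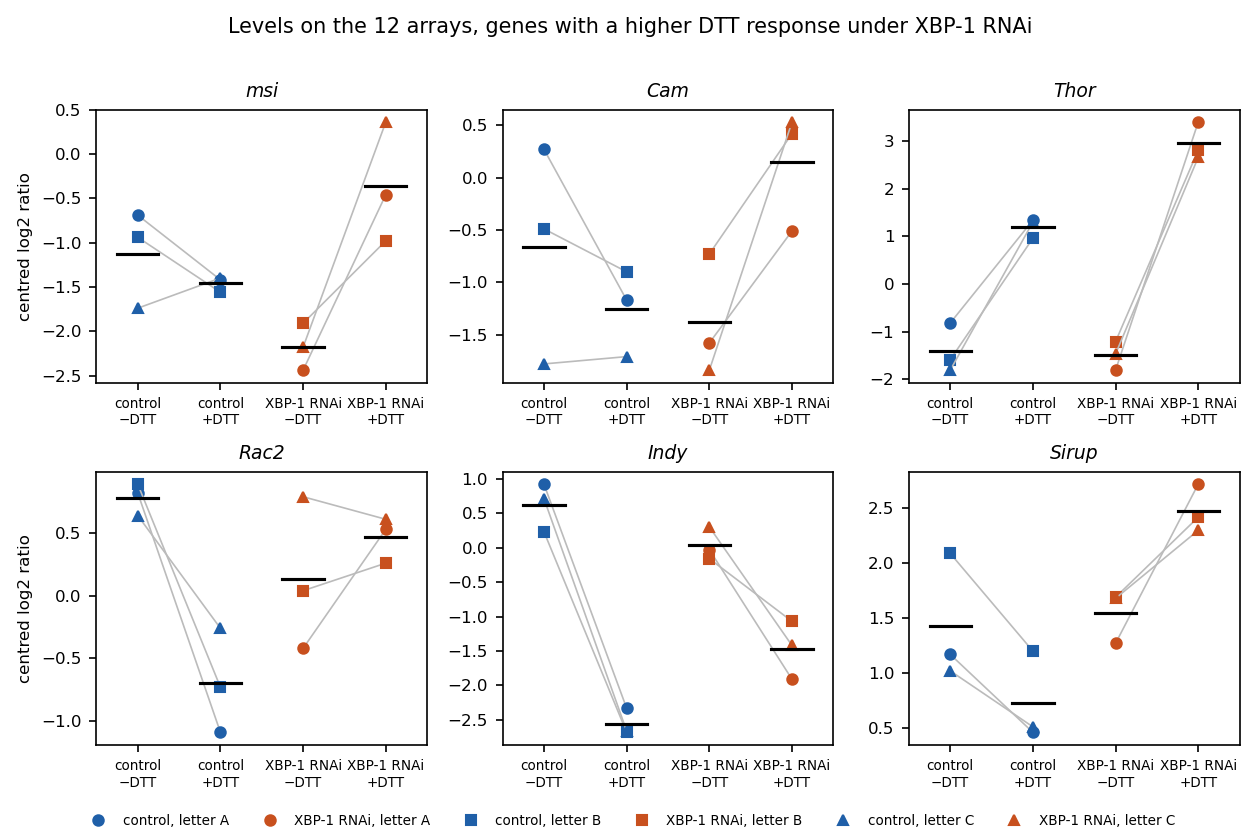
Centred log2 ratios of msi, Cam, Thor, Rac2, Indy and Sirup on each of the 12 arrays; symbols give the replicate letter, lines join arrays of the same letter and black bars are group means. Thor rises with DTT in both arms and further under XBP-1 RNAi, Indy falls in both and less far under XBP-1 RNAi, and the groups of Cam overlap in control.

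The 5 highest differences under the naming rule were msi, Cam, Thor, Rac2 and be. The RNA-binding protein gene msi read -0.69, -0.94 and -1.74, then -1.42, -1.56 and -1.40 with DTT in control, and -2.44, -1.91 and -2.18, then -0.46, -0.98 and 0.36 with DTT under RNAi. The control groups overlapped and the RNAi groups did not. Its DTT effect was -0.34 in control and 1.82 under RNAi, a difference of 2.15 ± 0.47 (adjusted p = 0.0079). Without DTT its RNAi arrays were also the lower ones.

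Cam, which encodes calmodulin, read 0.27, -0.49 and -1.78, then -1.17, -0.90 and -1.71 with DTT in control, and -1.58, -0.73 and -1.84, then -0.51, 0.42 and 0.53 with DTT under RNAi. The control values without DTT spread over more than the effect. The difference was 2.12 ± 0.56 (adjusted p = 0.0278). It did not pass with quantile normalization (adjusted p = 0.0718) or without the letter block (0.163), nor without control with DTT A (2.24), B (2.02) or C (2.11), XBP-1 RNAi without DTT A (2.07) or C (2.11), or XBP-1 RNAi with DTT C (1.63).

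Rac2, which encodes a small GTPase, read 0.82, 0.89 and 0.64, then -1.09, -0.73 and -0.26 with DTT in control, and -0.42, 0.04 and 0.79, then 0.53, 0.26 and 0.61 with DTT under RNAi. It fell by 1.48 in control and did not pass under RNAi (0.33), a difference of 1.81 ± 0.30 (adjusted p = 0.00105). be read 0.28, 0.22 and 0.00, then -0.83, -1.03 and -0.64 with DTT in control, and -0.73, -0.25 and 0.08, then 0.38, 0.14 and 0.91 with DTT under RNAi. The groups moved apart in opposite directions, and the difference was 1.78 ± 0.31 (adjusted p = 0.0016).

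Several transcription factor genes were among the 15 highest. hry, the repressor hairy, rose by 1.56 in control and by 3.24 under RNAi, a difference of 1.68 ± 0.37 (adjusted p = 0.00859). The bZIP factor gene Pdp1 had a DTT effect of 0.60 in control, which did not pass, and rose by 2.31 under RNAi, a difference of 1.71. The zinc finger gene cbt rose by 1.01 and 2.69, a difference of 1.68. The call of cbt was lost without control without DTT A (1.30), control with DTT A (1.51), XBP-1 RNAi without DTT C (1.46) or XBP-1 RNAi with DTT C (1.27).

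Sirup, which takes part in assembling succinate dehydrogenase, read 1.17, 2.09 and 1.02, then 0.46, 1.20 and 0.51 with DTT in control, and 1.27, 1.69 and 1.68, then 2.72, 2.42 and 2.30 with DTT under RNAi. The groups with and without DTT overlapped in control and separated under RNAi, with a difference of 1.64 ± 0.32 (adjusted p = 0.00384). The actin-binding Swip-1 had a difference of 1.76 and the others, CG17760, CG5004 and CG4822, 1.70, 1.59 and 1.59. CG3348, among the strongest DTT responses, rose by 3.89 in control and by 5.66 under RNAi, a difference of 1.77 ± 0.46 (adjusted p = 0.023). Its difference was 0.53 (adjusted p = 0.598) with quantile normalization, and its call was lost without control without DTT B (1.58), control with DTT A (1.49), or letter B of XBP-1 RNAi without DTT (1.27) or with DTT (1.49). Without the letter block msi, Thor, Rac2, be, hry, Indy, CG5004 and CG4822 still passed among the 15, and Cam, CG3348, Swip-1, Pdp1, CG17760, cbt and Sirup did not. With values as deposited Pdp1, CG17760, cbt, hry, Indy, Sirup, CG5004 and CG4822 did not pass. With each probe's own variance msi, Cam, CG3348, Pdp1, CG17760, cbt, hry and Indy did not pass. Those adjusted p-values ran from 0.0532 for Indy to 0.122 for Cam, CG3348 and cbt.

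The 3 mRNAs that the study group has named as cleaved by IRE1 were examined as a set chosen on these samples, so their direction is not independent evidence. The citrate transporter gene Indy read 0.92, 0.23 and 0.71, then -2.33, -2.68 and -2.66 with DTT in control, and -0.03, -0.16 and 0.30, then -1.91, -1.07 and -1.42 with DTT under XBP-1 RNAi. It fell by 3.18 in control and by 1.50 under RNAi, a difference of 1.67 ± 0.35 (adjusted p = 0.00641; 0.0594 with quantile normalization). Both groups with DTT lay below both groups without. SPARC, a collagen-binding matrix protein, fell by 3.66 and by 3.39, a difference of 0.27 ± 0.39 that did not pass (adjusted p = 0.73) and that changed sign with values as deposited (-0.03). Hydr2, an alpha/beta hydrolase, fell by 2.68 and by 1.90, with a difference of 0.78 ± 0.29 (adjusted p = 0.123).

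**Figure D4:**
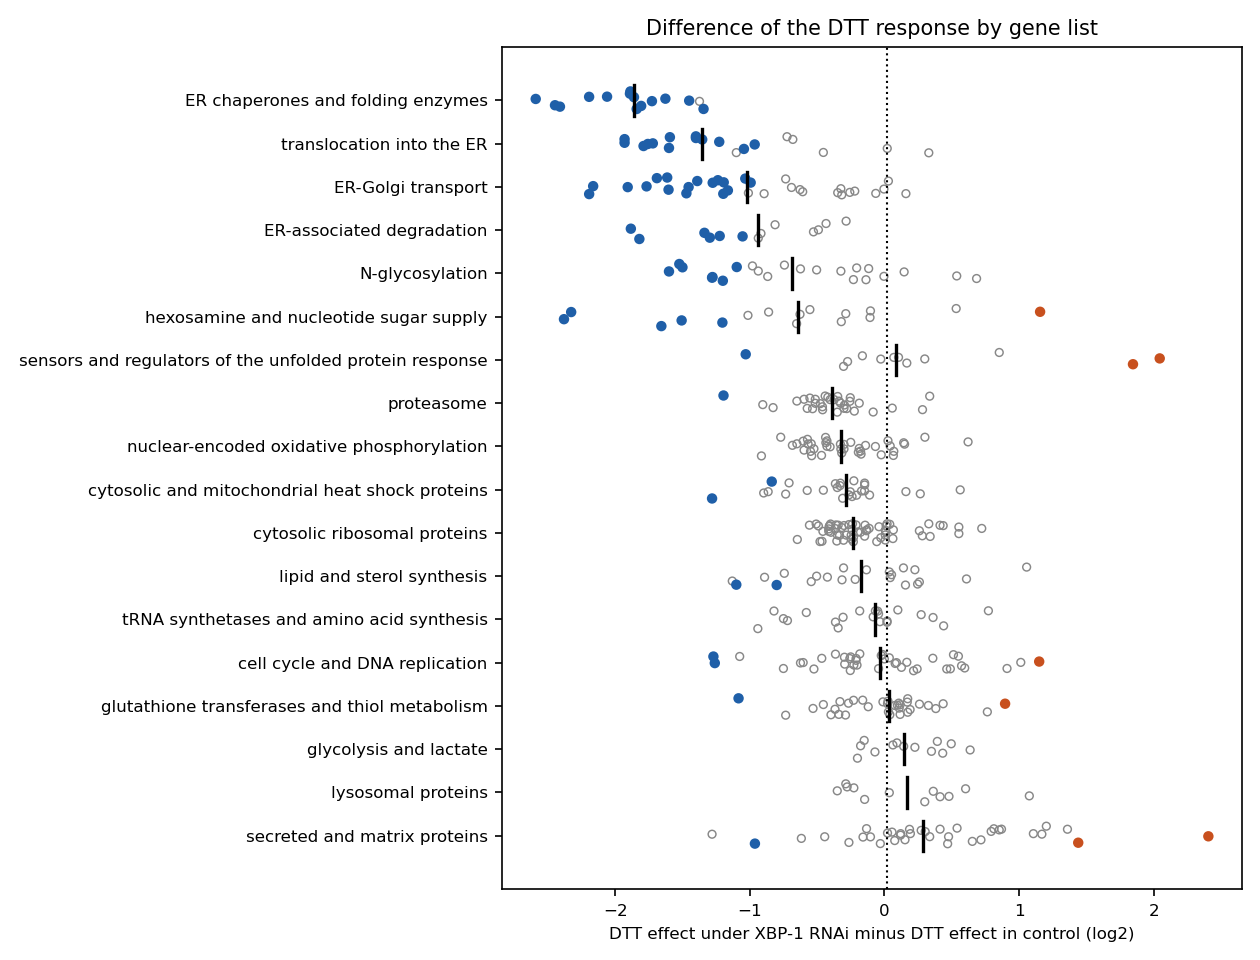
Each point is 1 probe of a gene list, placed by its DTT effect under XBP-1 RNAi minus its DTT effect in control (log2); filled points passed the test, black bars are list medians and the dotted line is the median over all probes (0.02). The list of ER chaperones and folding enzymes has its median at -1.86, and 13 of its 14 genes passed.

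The remaining lists held few calls, to be read against the 4.65% of all probes that were lower and the 2.43% that were higher; counts of 1 or 2 members are no result about a list. In the proteasome 1 of 31 tested genes was lower, with a median of -0.39. It was Prosbeta7 (-1.20 ± 0.31, adjusted p = 0.0232), lost without control without DTT A, control with DTT C, XBP-1 RNAi without DTT A or B, or XBP-1 RNAi with DTT B, with adjusted p-values up to 0.079 and a range of -1.44 to -0.97 over all arrays left out in turn. Of 26 heat shock proteins of the cytosol and mitochondria 2 were lower, Hsc70-1 (-1.28 ± 0.25, adjusted p = 0.00384) and Droj2 (-0.84 ± 0.25, adjusted p = 0.0478), with a median of -0.29. Without the letter block neither passed (adjusted p = 0.13 and 0.241), and Prosbeta7 did not either (0.0866). The call of Droj2 was kept only without control without DTT C or XBP-1 RNAi without DTT C, and its values with arrays left out ran from -0.95 to -0.73. Among 59 ribosomal proteins (median -0.23), 39 nuclear-encoded subunits of oxidative phosphorylation (-0.32), 21 tRNA synthetases and amino acid synthesis genes (-0.07), 13 glycolytic genes (0.14) and 12 lysosomal genes (0.17), 0 passed in either direction.

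In 4 further lists a few members passed. In lipid and sterol synthesis 2 of 20 genes were lower (median -0.17): Kdsr (-0.80), a sphingolipid enzyme, and Pcyt1 (-1.10), which makes the precursor of phosphatidylcholine. In the cell cycle list 2 of 40 were lower and 1 higher (median -0.03): the replication genes Orc4 (-1.26) and Mcm3 (-1.27), and stg (1.15), the Cdc25 phosphatase that starts mitosis. The DTT effect on stg was -3.44 in control and -2.29 under XBP-1 RNAi. In the list of glutathione transferases and thiol metabolism, GstO1 (-1.08) was lower and GstT2 (0.90) higher of 33 tested (median 0.04). Of 32 secreted and matrix proteins (median 0.29), the collagen-modifying Plod (-0.96) was lower, and ImpL2 (1.44), which binds insulin-like peptides, and the calsyntenin Cals (2.41, on 8 of 12 arrays) were higher.

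Of these 10 genes, 9 lost the call on leaving out some array, and Cals, with 2 values per group, had none to spare. Without the letter block none of the 10 passed, with adjusted p-values from 0.08 for Kdsr to 0.604 for Cals. Over the arrays left out, Kdsr ran from -0.91 to -0.69 and kept its call only without control without DTT B or C, control with DTT C or XBP-1 RNAi with DTT A. Pcyt1 ran from -1.27 to -0.91 and kept it only without control without DTT B or XBP-1 RNAi without DTT B or C. GstT2 ran from 0.79 to 1.00 and kept it only without XBP-1 RNAi with DTT B. Plod ran from -1.07 to -0.88 and kept it without control without DTT B, and ImpL2 ran from 1.11 to 1.72 and kept it only without control without DTT B or C, control with DTT C or XBP-1 RNAi with DTT A or B. Orc4 (-1.50 to -1.05) lost its call without control without DTT A, control with DTT A or C, or XBP-1 RNAi without DTT B. Mcm3 (-1.41 to -1.09) lost it without control without DTT A, control with DTT A or B, or XBP-1 RNAi without DTT A. stg (0.82 to 1.33) lost it without letter A of any of the 4 groups. For GstO1 the call was lost without control with DTT, letter B (-0.91, adjusted p = 0.0631).

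The DTT effect under XBP-1 RNAi was also set against the 6 arrays labelled IRE1 RNAi, which share no sample with the XBP-1 RNAi arrays. Among these 6, letter A with DTT held only 3755 values, with 48.3% of its cells empty. Letter A without DTT had 24.7% empty. Their label is not borne out by the Ire1 probe, which read 1.71 ± 0.94 (SD, n = 3) without DTT and 2.42 ± 0.85 with DTT. On the 12 arrays described here it ran from -0.82 to 0.59. This is a single probe, and whether it overlaps the stretch used as double-stranded RNA was not tested. The DTT effect was lower under XBP-1 RNAi for 46 probes (0.85% of 5410) and higher for 1 (0.0185%). Without the letter block the counts were 8 and 0.

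In each of the 6 secretory lists the median DTT effect on the arrays labelled IRE1 RNAi lay between those of the other arms. For the ER chaperones it was 1.04 in control, 0.05 on the arrays labelled IRE1 RNAi and -0.79 under XBP-1 RNAi. For ER import the medians were 0.00, -0.94 and -1.68, and for ER to Golgi transport 0.62, -0.14 and -0.25. In the test of the difference, scf (-1.92, adjusted p = 0.024), meigo (-1.89, 0.00531), ERp60 (-1.67, 0.012), Sec63 (-1.44, 0.0313), Pdi (-1.42, 0.0474), Calr (-1.16, 0.0437) and both shv probes (-1.64, 0.024; -1.53, 0.0152) responded lower under XBP-1 RNAi than on the arrays labelled IRE1 RNAi. Ero1L (-0.83, adjusted p = 0.66), Trp1 (-0.74, 0.66) and Gp93 (-0.66, 0.72) did not pass, which does not show that they responded alike. Among the higher responses Thor (0.65, 0.72), msi (0.72, 0.76) and Rac2 (0.55, 0.71) did not pass either.

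The DTT effect on GCS2beta was -2.63 under XBP-1 RNAi and -0.50 on the arrays labelled IRE1 RNAi, a difference of -2.13 (adjusted p = 0.00216). For the 3 mRNAs named as cleaved by IRE1 the DTT effects under XBP-1 RNAi and on the arrays labelled IRE1 RNAi were -3.39 and -0.75 for SPARC, -1.90 and 0.24 for Hydr2, and -1.50 and 0.31 for Indy. All 3 differences passed, at -2.63 (adjusted p = 0.0018), -2.14 (0.000719) and -1.82 (0.0152). Because the 3 were chosen on these samples, these tests are not independent evidence. In control cells the DTT effects had been -3.66, -2.68 and -3.18.

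**Figure D5:**
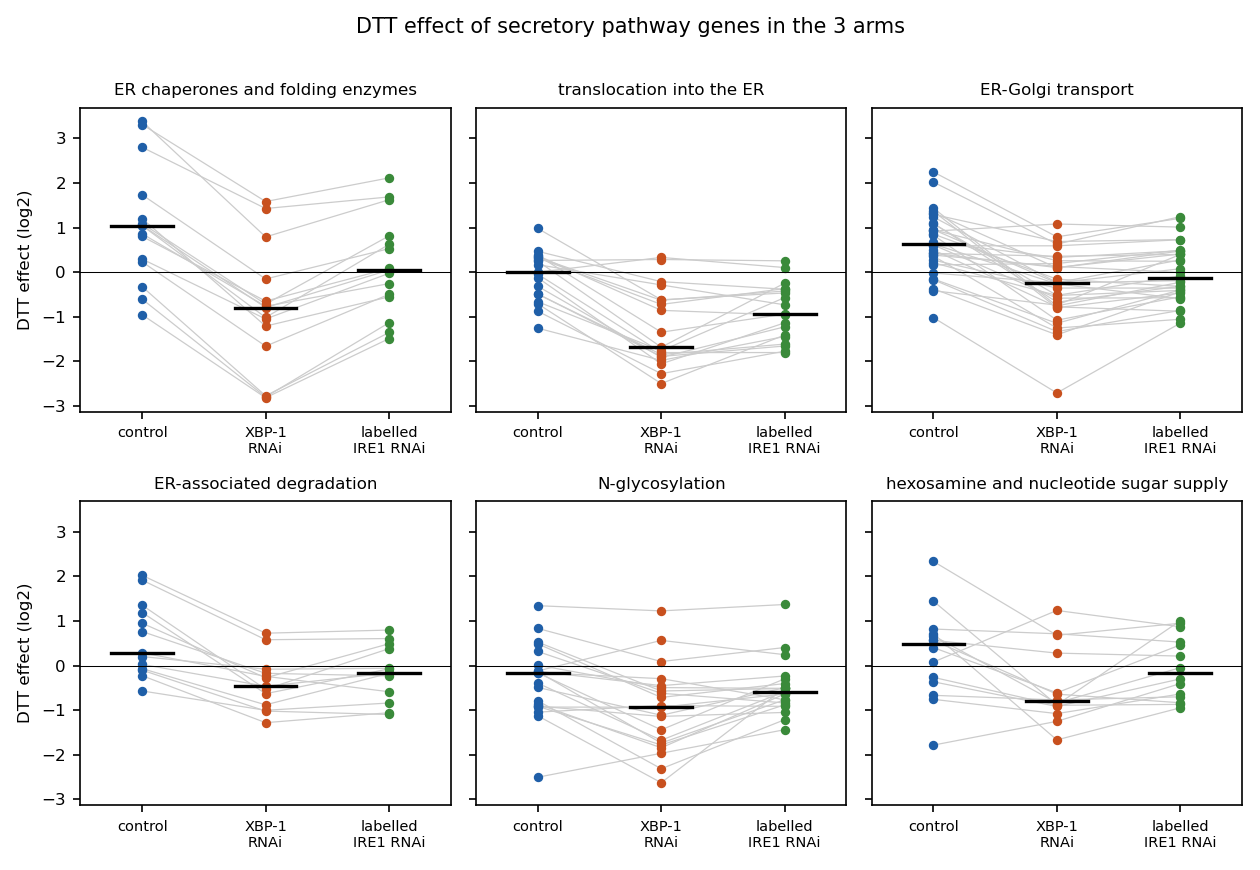
DTT effect (log2) of each tested probe of 6 secretory lists in control, under XBP-1 RNAi and on the arrays labelled IRE1 RNAi; grey lines join the values of a probe and black bars are medians. For ER chaperones the medians are 1.04, -0.79 and 0.05, in that order.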

How the data were processed

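RNA was measured on 18 spotted arrays with 2 channels. Per the labels, normalization by the authors was done in NOMAD, an array database, and spots were dropped if under 1.5-fold over background, if the R2 between channels was under 0.5 or if visibly defective. What was deposited are log ratios, taken as log2 in this work. Scanner intensities were not used here. The aligning of probes to genes is not given in the sources used here: probe numbers were taken for CG gene numbers and looked up among RefSeq Release 6 locus tags (6683 of 7257) or synonyms (457); 107 matched several genes and 10 none, and both sets stayed unnamed. Genes with several probes count as called if any probe is.

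Each array was centred on its median. limma 3.58.1 (R 4.3.3) fitted 6 group means and the replicate letter as a block to all 18 arrays, with robust empirical Bayes and a minimum of 2 values per group compared. P-values are 2-sided, Benjamini-Hochberg adjusted over all probes tested, with a threshold of 0.05. The fit was run on simulated data with known changes, independent noise and the letter effects built in. Such data cannot show whether the letter block or the independence of the arrays holds. Promoter motifs were not searched, since no promoter sequence was used here. The letter block was set together with the comparison, not taken from the labels.

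Named genes are the 15 lowest and 15 highest differences past the threshold among probes with all 12 values, 1 gene and 1 direction in the 3 letters, with Xbp1, Ire1 and members of gene lists. The comparison, lists and rule were chosen with earlier results of these data known. Alternatives changed the scaling, block, variance, filter and arrays. Spot intensities were not used, so the number of arrays limits the precision.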

Additional observations from a re-analysis of the deposited data

Results flagged for a closer look

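The DTT effect differed by test between the XBP-1 RNAi arrays and the arrays labelled IRE1 RNAi for 11 genes named above. Of these, SPARC, Hydr2 and Indy were chosen on these samples, so their differences are not independent evidence. The differences, XBP-1 RNAi minus labelled IRE1 RNAi, were -2.63 for SPARC, -2.14 for Hydr2, -2.13 for GCS2beta, -1.92 for scf, -1.89 for meigo, -1.82 for Indy, -1.67 for ERp60, -1.64 and -1.53 for the 2 probes of shv, -1.44 for Sec63, -1.42 for Pdi and -1.16 for Calr, all on the log2 scale and all from limma with adjusted p-values between 0.000719 and 0.0474.

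The Ire1 probe on the arrays labelled IRE1 RNAi, which do not enter the main comparison, averaged 1.71 without DTT and 2.42 with DTT, above every control array (-0.82 to 0.17). The label of these arrays is not borne out by this probe. Whether the probe overlaps the stretch used as double-stranded RNA was not tested.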

How the results depend on the processing

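The lower and higher counts of 255 and 133 probes became 69 and 13 without the replicate letter as a block, and 159 and 36 with each probe's own variance. The higher count was 25 with values as deposited, 62 with quantile normalization and 380 in limma on the 3 differences of differences, 1 per letter. With arrays left out in turn the lower count ran from 166 to 249 and the higher from 47 to 183; the cause of these moves was not tested. The other settings kept both counts within 1.5 times. With values as deposited the DTT effect counts were 468 lower in control and 494 higher under XBP-1 RNAi (827 without the block), XBP-1 RNAi against control with DTT gave 220 lower and 44 higher (205 and 40 without the block), and XBP-1 RNAi against the arrays labelled IRE1 RNAi gave 12 lower (8 without the block); its 1 higher probe went to 0 with quantile normalization, without the block and with the block as a random effect. Differences that never passed changed sign: with values as deposited Ire1 was -0.14, SPARC -0.033 and the Xbp1 probes -0.007 and -0.237, and with quantile normalization the Xbp1 probes were -0.03 and -0.16. With arrays left out in turn the difference ran from -0.053 to 0.203 for Xbp1 9415b, from -0.119 to 0.425 for Ire1 and from -0.132 to 0.683 for SPARC. Among the 12 arrays, same-letter arrays deviated together in 17 of 18 pairs at r over 0.1 (0.042 to 0.619). Over the whole study 18 of 18 arrays correlated best on average with their own letter. Deviations were taken from group means, which pushes arrays of a group apart and favours that outcome, so nothing is drawn from it. Of the 18 pairs among the 12 arrays 1 falls short of an r of 0.1. With the block as a random effect the correlation within letters was 0.352. The labels do not say what arrays of a letter share, so the pairing stays a hint from the data. The fit without the block is given beside each secretory list.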
